A study of Homo sapiens with 18 samples.

Results

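The collagen genes of the H2052 mesothelioma line are described here, chosen by symbol as every gene written as COL, a number, A and a number. They numbered 43 of the 30954 gene identifiers in the H2052 count table, and 39 of them were also listed among the 19284 identifiers of the H226 table. H2052 is a pleural mesothelioma cell line mutant for NF2 and LATS2, upstream regulators of the transcriptional coactivators YAP and TAZ, and H226 is a mesothelioma line that lacks NF2. The polyA RNA libraries came from NF1 mutant H2052 cells given VT107 (n = 3), NF1 mutant H2052 cells given DMSO (n = 3), parental H2052 cells given VT107 (n = 3) and parental H2052 cells given DMSO (n = 3), with 3 VT107 and 3 DMSO libraries of H226 as support. VT107 blocks palmitoylation of the TEAD transcription factors and was used at 1 µM for 24 h, and DMSO is its solvent. NF1 mutant cells were puromycin-selected populations made with lentiviral Cas9 and a guide against NF1, a negative regulator of RAS. The guide used for these libraries is not given in the sources used here, and neither is whether the parental libraries came from the Cas9-expressing parental cells that the study used for immunoblots. The comparisons ask how collagen mRNA differed with NF1 mutation, with TEAD inhibition, and with TEAD inhibition in NF1 mutant cells.

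Collagens are proteins of 3 chains wound into a triple helix, and they make up most of the structural protein of connective tissue. Fibrillar collagens such as types I, III and V assemble into banded fibrils, type IV forms the sheet-like network of basement membranes, type VI forms beaded filaments around cells, and FACIT collagens such as type XII bind to the surface of fibrils. Mesothelial cells lie on a basement membrane and secrete matrix, and mesothelioma cells with a spindle shape often express fibrillar collagens. The genes for type IV chains lie in head-to-head pairs, in which both genes of a pair are transcribed outward from a shared stretch of DNA.

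Total counts were 3285363 to 4806065 in the NF1 mutant VT107 libraries, 3988479 to 5489092 in the NF1 mutant DMSO libraries, 12424914 to 13346712 in the parental VT107 libraries and 10950284 to 13418485 in the parental DMSO libraries. The column names of the parental libraries carry a date that those of the NF1 mutant libraries lack, so genotype and library series cannot be told apart. NF1 itself was at 8.3, 18 and 16.1 CPM (counts scaled to library size with TMM factors) in NF1 mutant VT107 cells, 12.5, 17.1 and 17.8 CPM in NF1 mutant DMSO cells, 59.6, 55.2 and 26.0 CPM in parental VT107 cells and 67.1, 61.7 and 34.1 CPM in parental DMSO cells. Of 9 mesothelial markers, 7 or 8 had counts in every library. Endothelial markers summed to at most 0.865 CPM and epithelial markers to at most 2.59 CPM. The pan-leukocyte marker PTPRC was at 0 in all libraries but parental DMSO library 3, where it was at 0.27 CPM, and CORO1A gave most of the sum of the leukocyte list.

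Libraries 3 of both parental groups and library 1 of the NF1 mutant VT107 group stood apart. The summed collagen level was 1474, 1164 and 1276 CPM in NF1 mutant VT107 libraries 1 to 3, 824.4, 900.1 and 908.4 CPM in NF1 mutant DMSO libraries, 1253, 1091 and 2989 CPM in parental VT107 libraries and 976.2, 1017 and 1946 CPM in parental DMSO libraries. Of the 21 collagen genes with counts in all 12 libraries, 15 were more than 1.5 times as high in parental VT107 library 3 as in the mean of libraries 1 and 2, and 8 were so in parental DMSO library 3. The list of 5 fibroblast markers summed to 492.9 CPM in parental VT107 library 3, against 300.1 and 282.0 CPM in the other parental VT107 libraries, and to 476.0 CPM in parental DMSO library 3, against 308.4 and 280.8 CPM. The list of 8 leukocyte markers summed to 24.0 and 21.8 CPM in both libraries numbered 3, against 10.45 to 12.86 CPM in the other parental libraries. The mesothelial list summed to 3495 and 4000 CPM there, against 2303 to 2488 CPM. The part of these markers in the collagen levels was not tested, and fewer cells of a type cannot be told apart from less RNA per cell in bulk libraries.

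RefSeq promoter sequence (GRCh38.p14) was matched for 31 of the 43 genes by symbol. It was searched on both strands for GGAATG, the core of the TEAD site, TGANTCA, the AP-1 site, CCAAT, and GGGCGG, the GC box. Such matches describe the letters only. The start sites of COL4A1 and COL4A2 lie 127 bases apart, those of COL4A6 and COL4A5 380 bases apart and those of COL4A4 and COL4A3 419 bases apart. The stretch between COL4A1 and COL4A2 is shown because both genes start from it, and COL4A2 was lower in NF1 mutant DMSO cells while COL4A1 did not pass the test. The stretches before COL6A3 and COL12A1 are shown because both genes are described in each H2052 comparison below except the interaction. Capitals mark a match to any of the 4 motifs on either strand.
COL4A1 to COL4A2, chr13:110307158-110307283, plus strand: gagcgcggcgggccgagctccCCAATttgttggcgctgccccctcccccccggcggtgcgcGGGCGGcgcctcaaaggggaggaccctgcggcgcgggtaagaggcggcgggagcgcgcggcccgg
COL6A3, chr2:237414165-237414414, minus strand: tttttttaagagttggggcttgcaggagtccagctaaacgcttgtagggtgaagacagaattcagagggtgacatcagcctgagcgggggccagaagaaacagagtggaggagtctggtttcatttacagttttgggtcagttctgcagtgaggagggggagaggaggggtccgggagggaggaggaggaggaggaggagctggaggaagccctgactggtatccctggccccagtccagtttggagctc
COL12A1, chr6:75206054-75206303, minus strand: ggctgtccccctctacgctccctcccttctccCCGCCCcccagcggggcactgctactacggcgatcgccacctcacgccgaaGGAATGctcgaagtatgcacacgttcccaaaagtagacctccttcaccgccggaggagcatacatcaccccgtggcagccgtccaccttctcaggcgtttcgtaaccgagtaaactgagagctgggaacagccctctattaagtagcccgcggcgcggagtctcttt

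The 126 bases between COL4A1 and COL4A2 held 1 CCAAT and 1 GGGCGG. Of the last 126 bases before the start of all 35116 RefSeq promoters, 21.1% held CCAAT and 34.6% held GGGCGG. COL12A1 was the only collagen gene of 31 with GGAATG in the 250 bases before its start, a motif found there in 11.9% of all promoters. No collagen promoter of the 31 held TGANTCA in that window, which 6.57% of all promoters held. COL6A3 had none of the 4 motifs. COL1A1, COL6A1 and COL8A1 had no entry.

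Expression was concentrated in few genes. Group means of at least 10 CPM in at least 1 H2052 group were reached by 14 collagen genes, 9 more reached 1 to 10 CPM, and 20 stayed below 1 CPM in every group. The 3 type VI chains COL6A1, COL6A2 and COL6A3 alone made up 43.5% to 67% of all collagen CPM in a library, and the type I chains COL1A1 and COL1A2 made up 8.09% to 23.2%. Per kilobase of exon (GENCODE v29 exon lengths), COL6A1 was highest in every H2052 group, with mean levels of 73.2, 42.6, 110.8 and 76.0 CPM per kb in NF1 mutant VT107, NF1 mutant DMSO, parental VT107 and parental DMSO cells. COL6A2 came next in each, with 53.6, 27.4, 40.8 and 28.6 CPM per kb in the same groups. In NF1 mutant VT107 library 1 COL6A2 was above COL6A1, at 492.3 against 480.6 CPM, and in all other H2052 libraries it was below. The level of COL1A1 was 21.4, 17.3, 12.8 and 10.6 CPM per kb. In parental VT107 cells COL6A3 had a higher mean than COL1A1, at 16.6 CPM per kb, but the 2 genes were not separated by the spread between libraries. Library 3 raised both means, with COL6A3 at 561.8 CPM against 207.8 CPM in the mean of libraries 1 and 2. COL1A1 was at 177.1 CPM there, against 99.63 CPM. In parental DMSO cells the transmembrane COL13A1, at 10.02 CPM per kb, was not separated from COL1A1 by the spread between libraries. COL3A1, the type III chain that accompanies type I in most connective tissue, had at most 5 counts in any library.

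**Figure D1:**
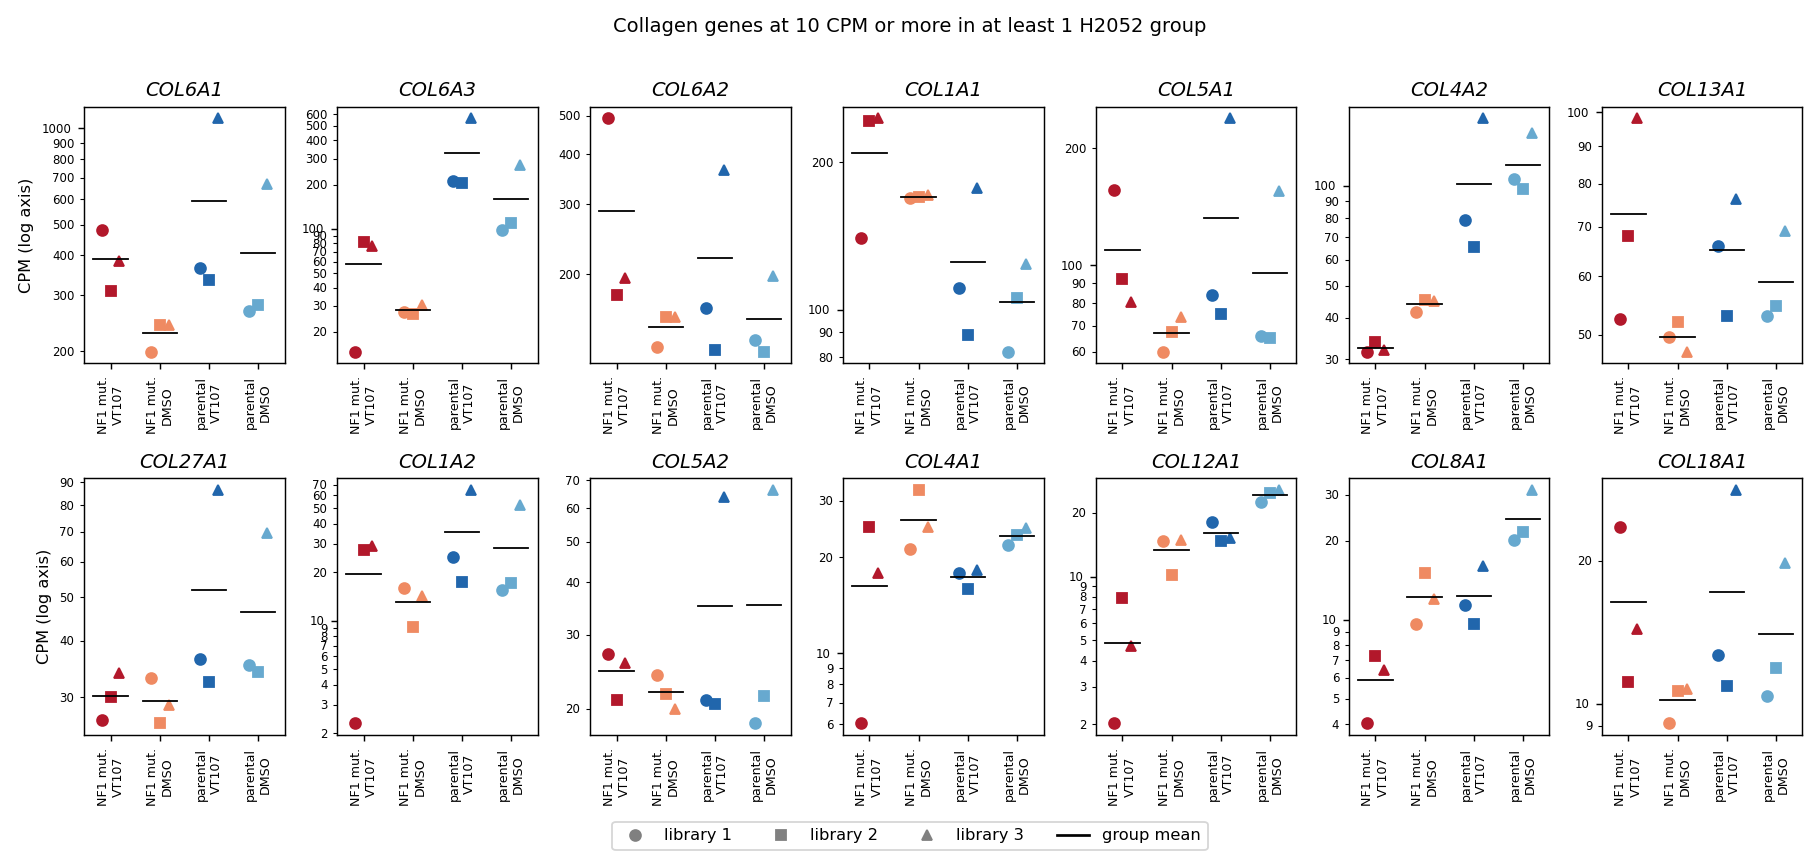
Level of the 14 collagen genes with a group mean of at least 10 CPM, on log axes with a scale of their own for each gene. Symbols are libraries 1 to 3 of each group and bars are group means. Parental libraries 3 (triangles) sit above the other parental libraries for most genes, and NF1 mutant VT107 library 1 (circle) lies far from its group for COL6A2, COL6A3, COL1A2 and COL12A1.

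The 20 genes below 1 CPM had at most 13 counts in any H2052 library. COL6A5, COL9A1, COL19A1, COL21A1 and COL25A1 had 0 counts in all 12 libraries, where 3 counts correspond to 0.210 to 0.879 CPM. The fibrillar genes of this kind were COL2A1, COL3A1, COL5A3, COL11A1, COL11A2 and COL24A1, and the network genes were COL4A3 and COL10A1. The FACIT genes were COL9A1, COL14A1, COL16A1, COL19A1, COL20A1 and COL21A1, and the filament genes were COL6A5 and COL6A6. The remaining genes were the transmembrane COL23A1 and COL25A1, the multiplexin COL15A1 and COL28A1. COL7A1, the anchoring fibril collagen, was at 5.98 CPM in parental VT107 library 3, against 0.49 and 1.07 CPM in the other parental VT107 libraries, and the FACIT gene COL22A1 was at 5.91 CPM there, against 0 CPM in both others.

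NF1 mutation in DMSO went with lower COL6A3, COL4A2, COL8A1 and COL12A1 and with higher COL1A1. The mesothelial marker list summed to 4710, 4280 and 5054 CPM in NF1 mutant DMSO cells, against 2408, 2451 and 4000 CPM in parental DMSO cells. The list includes keratins, the sum is not split by gene here, and its part in the differences was not tested. COL6A3, the long chain of type VI collagen (chr2:238232646-238323018, hg19, minus strand), was at 27.3, 26.7 and 30.3 CPM in NF1 mutant DMSO cells, against 97.6, 109.5 and 273.1 CPM in parental DMSO cells. All NF1 mutant libraries lay below all parental ones, and COL6A3 fell by 2.51 on the log2 scale (SE 0.38, adjusted p = 0.00216), or by 1.89 without parental DMSO library 3. COL4A2, a basement membrane chain (chr13:110958159-111165374, hg19, plus strand), was at 41.6, 45.3 and 45.0 CPM in NF1 mutant DMSO cells, against 104.8, 97.5 and 144.7 CPM in parental DMSO cells. COL4A2 fell by 1.39 on the log2 scale (SE 0.17, adjusted p = 0.00092), with no overlap between the groups.

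COL8A1 and COL12A1 showed smaller differences with less margin. COL8A1, a short-chain network collagen, was at 9.63, 15.1 and 11.98 CPM in NF1 mutant DMSO cells, against 20.1, 21.6 and 31.2 CPM in parental DMSO cells, a log2 fold change of -0.98 (SE 0.25, adjusted p = 0.0191). COL12A1, the FACIT chain of type XII, was at 14.8, 10.2 and 14.9 CPM in NF1 mutant DMSO cells, against 22.5, 24.9 and 25.7 CPM in parental DMSO cells, a log2 fold change of -0.86 (SE 0.19, adjusted p = 0.0121). For both genes the groups did not overlap. COL12A1 lost its call without NF1 mutant DMSO library 2 (adjusted p = 0.052), and COL8A1 lost its call without NF1 mutant DMSO library 1 (adjusted p = 0.0911) or library 3 (adjusted p = 0.0737). With all 4 H2052 groups in 1 fit neither passed, with adjusted p of 0.0632 for COL8A1 and 0.145 for COL12A1.

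COL1A1, the major chain of type I collagen (chr17:48260650-48278993, hg19, minus strand), was the only collagen gene called higher. It was at 169.1, 169.9 and 171.8 CPM in NF1 mutant DMSO cells, against 82.0, 105.9 and 123.8 CPM in parental DMSO cells, and rose by 0.72 on the log2 scale (SE 0.16, adjusted p = 0.0112). It did not pass with all 4 H2052 groups in 1 fit (0.70, adjusted p = 0.178), and a filter of 0.5 CPM in at least 3 libraries added the FACIT gene COL9A2 as higher (2.07, adjusted p = 0.0403). Its partner in the type I helix, COL1A2, was at 16.1, 9.10 and 14.2 CPM in NF1 mutant DMSO cells, against 15.6, 17.2 and 52.3 CPM in parental DMSO cells, and these groups overlapped. The log2 fold change of COL1A2 was -1.10 (SE 0.47, adjusted p = 0.116), and without parental DMSO library 3 it was -0.31.

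Of the other type VI chains, COL6A1 was at 199.5, 241.8 and 242.0 CPM in NF1 mutant DMSO cells, against 268.2, 279.9 and 670.9 CPM in parental DMSO cells. These groups did not overlap, and the log2 fold change was -0.83 (SE 0.33, adjusted p = 0.0921), or -0.27 without parental DMSO library 3 (adjusted p = 0.0266). COL6A2 was at 131.5, 155.9 and 156.0 CPM in NF1 mutant DMSO cells, against 136.6, 127.7 and 197.8 CPM in parental DMSO cells, which overlapped. The type V chains COL5A1 and COL5A2, which set the diameter of type I fibrils, had their highest value in parental DMSO library 3. COL5A1 was at 59.9, 67.3 and 73.6 CPM in NF1 mutant DMSO cells, against 65.9, 65.0 and 155.7 CPM in parental DMSO cells, and COL5A2 was at 24.1, 21.8 and 20.04 CPM, against 18.5, 21.5 and 66.2 CPM.

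COL27A1, a fibrillar collagen of cartilage, was at 33.0, 26.2 and 28.8 CPM in NF1 mutant DMSO cells, against 35.3, 34.1 and 69.5 CPM in parental DMSO cells, with no overlap and a log2 fold change of -0.65 (SE 0.28, adjusted p = 0.121). COL13A1 was at 49.6, 52.0 and 47.4 CPM in NF1 mutant DMSO cells, against 53.0, 54.8 and 69.1 CPM in parental DMSO cells, a log2 fold change of -0.24 that did not pass (adjusted p = 0.27). The printed CPM, scaled over all 12 libraries, did not overlap for COL13A1, but they did when scaled over the 6 libraries compared, the scaling on which overlaps are counted here. COL18A1, the precursor of endostatin, was at 9.10, 10.7 and 10.8 CPM in NF1 mutant DMSO cells, against 10.4, 11.9 and 19.8 CPM in parental DMSO cells, and these groups overlapped.

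Of the 20 collagen genes that passed 0.5 CPM in every library of this comparison, 4 were called lower and 1 higher, and 9 had an unadjusted p under 0.05, against 40.5% of all genes. Among all 12475 genes tested, 14.9% were called lower and 12.5% higher, so the share of collagen genes called was near that of all genes. Their median log2 fold change was -0.57, against -0.015 over all genes, and it was -0.20 without parental DMSO library 3. Groups did not overlap for 7 collagen genes lower and 2 higher, where 21.9% of all genes were lower and 22.9% higher in this way. Beside the genes above these were COL9A3 (lower) and COL8A2 (higher), both low in level and neither called. By class, 1 of 5 fibrillar genes tested was higher, 2 of 7 network genes were lower, and 1 of 3 type VI genes and 1 of 2 FACIT genes were lower. Neither of the 2 transmembrane genes nor COL18A1 was called.

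**Figure D2:**
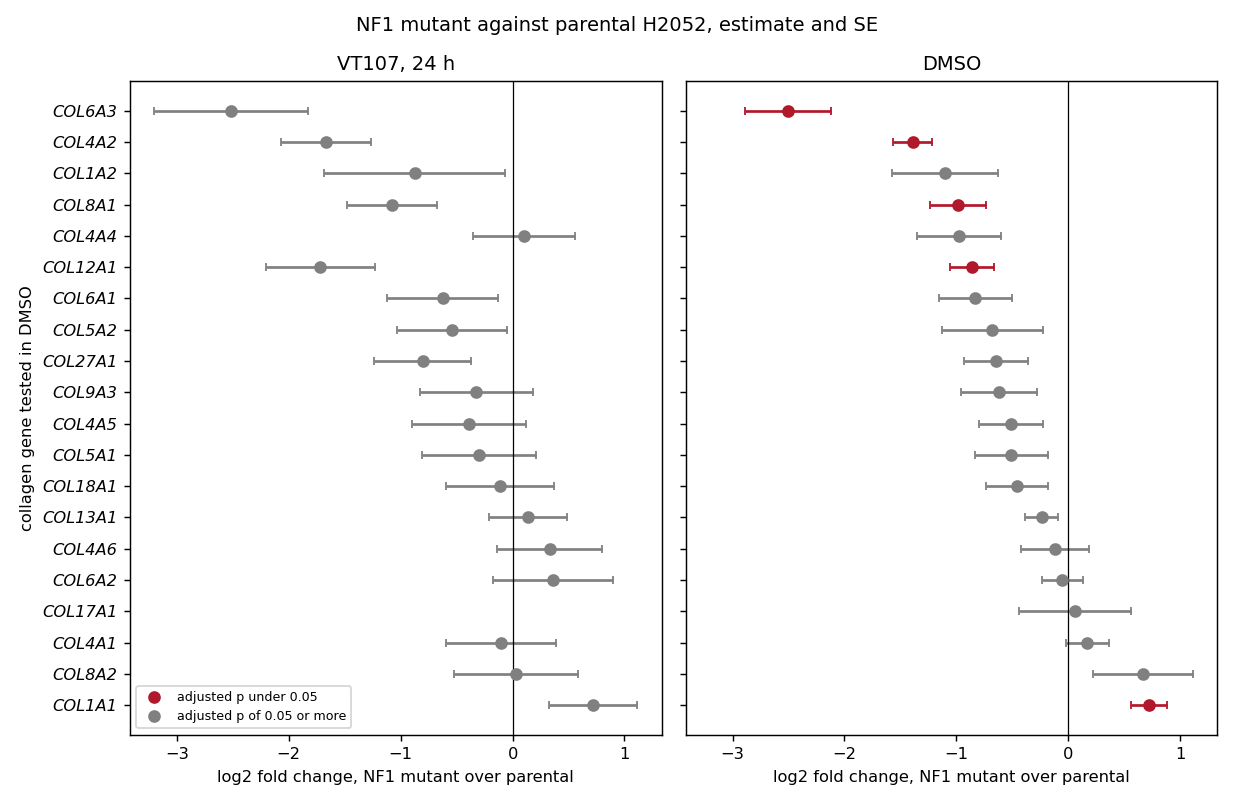
Log2 fold change of NF1 mutant over parental H2052 for the 20 collagen genes tested in DMSO, under VT107 (left, where COL17A1 was not tested) and in DMSO (right), as estimates with 1 SE. Coloured points have an adjusted p under 0.05. In DMSO COL6A3 lies at -2.51 and COL1A1 at 0.72, and under VT107 the order is similar but the SEs are larger and no gene passes.

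Ratios between chains of 1 type differed between NF1 mutant and parental DMSO cells in both directions. They were lower in NF1 mutant cells for COL4A2 over COL4A1, COL6A3 over COL6A1 and COL1A2 over COL1A1. The ratio of COL6A2 over COL6A1 was higher, and that of COL4A5 over COL4A6 was not separated. The ratio of COL4A2 to COL4A1 within a library was 1.96, 1.40 and 1.80 in NF1 mutant DMSO cells, against 4.79, 4.15 and 5.84 in parental DMSO cells. COL4A1 itself was at 21.2, 32.4 and 24.9 CPM in NF1 mutant DMSO cells, against 21.9, 23.5 and 24.8 CPM in parental DMSO cells, a log2 fold change of 0.17 (SE 0.19, adjusted p = 0.546). These genes start from the stretch of DNA printed above and their listed spans overlap by 1338 bases on opposite strands. The ratio of COL6A3 to COL6A1 was 0.137, 0.110 and 0.125 in NF1 mutant DMSO cells, against 0.364, 0.391 and 0.407 in parental DMSO cells. The ratio of COL1A2 to COL1A1 was 0.0950, 0.0536 and 0.0825 in NF1 mutant DMSO cells, against 0.190, 0.163 and 0.423 in parental DMSO cells. The exact two-sided permutation p was 0.1 for each of the 3 ratios, the smallest that 3 libraries against 3 can give, and the ratios were chosen after the levels were seen. The ratio of COL6A2 to COL6A1 was 0.659, 0.645 and 0.645 in NF1 mutant DMSO cells, against 0.509, 0.456 and 0.295 in parental DMSO cells. These ranges did not overlap, and this ratio was not tested. The ratio of COL4A5 to COL4A6 was 1.58, 1.62 and 2.71 in NF1 mutant DMSO cells, against 2.11, 2.31 and 3.24 in parental DMSO cells, and these ranges overlapped. Under VT107 the ratio of COL4A2 to COL4A1 was 5.24, 1.36 and 1.79 in NF1 mutant cells, against 4.44, 4.11 and 8.76 in parental cells. These ranges overlapped (exact two-sided permutation p = 0.3). The ratios of COL6A3 to COL6A1 and of COL1A2 to COL1A1 did not overlap between genotypes under VT107. Of 12 comparisons of the 3 tested ratios, none could pass at this number of libraries.

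**Figure D3:**
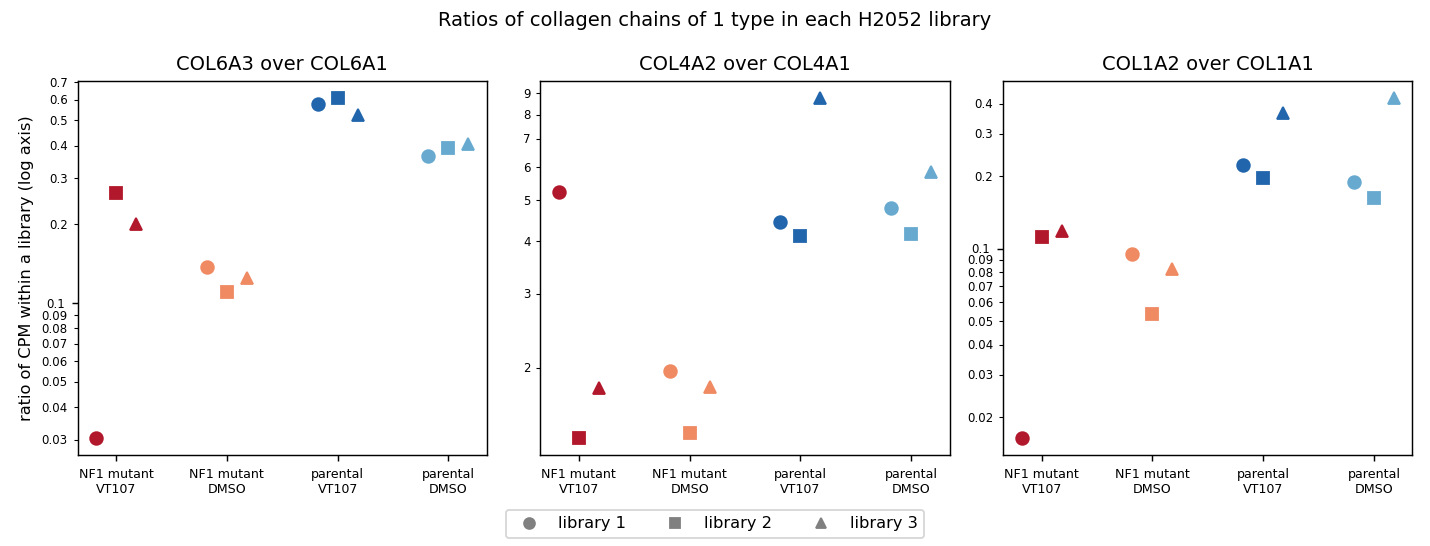
Ratio of CPM between chains of the same collagen type within each H2052 library, on log axes, for NF1 mutant and parental cells given VT107 or DMSO. Symbols are libraries 1 to 3. Parental libraries 3 do not stand apart in the ratio of COL6A3 to COL6A1, and NF1 mutant VT107 library 1 stands apart in all 3 panels.

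Under VT107 no gene was called between genotypes. With edgeR 0 of 11654 genes passed, 1945 had an unadjusted p under 0.05 (16.7% of all genes), and 4 of the 19 collagen genes tested were among these, COL6A3, COL4A2, COL12A1 and COL8A1. COL6A3 was at 14.7, 81.9 and 76.7 CPM in NF1 mutant VT107 cells, against 212.1, 203.5 and 561.8 CPM in parental VT107 cells, with a log2 fold change of -2.51 (SE 0.69, adjusted p = 0.148). COL4A2 was at 31.6, 33.8 and 31.9 CPM in NF1 mutant VT107 cells, against 79.2, 65.3 and 159.7 CPM in parental VT107 cells, with a log2 fold change of -1.67 (SE 0.40, adjusted p = 0.121). For all 4 genes the groups did not overlap, as for 14.2% of all genes in the lower direction, and no collagen gene was higher in this way, against 11.4% of all genes.

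Other fits gave calls, while leaving out any 1 library gave none for a collagen gene. The shares of all genes called by the other fits are not given here, so their calls are not read as particular to collagen genes. DESeq2, on all 6 libraries, called COL6A3, COL4A2 and COL12A1 lower (log2 fold changes of -2.48, -1.60 and -1.67). With libraries weighted by quality (voomWithQualityWeights), the same 3 genes were lower, and COL1A1 was higher by 1.21 (adjusted p = 0.000531). Without NF1 mutant VT107 library 1 and parental VT107 library 3, COL6A3 was at -1.39 (adjusted p = 4.89e-05), COL4A2 at -1.14 (adjusted p = 0.000462), COL12A1 at -1.35 (adjusted p = 0.00435) and COL1A1 at 1.29 (adjusted p = 0.000147). In simulated counts at the spread of all 6 libraries, 21.0% of genes changed 4-fold and 0% of genes changed 2-fold were recovered. The simulated noise was independent between genes, without libraries that stand apart over many genes, so these shares need not hold for the real libraries.

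With the replicate number as a block, TEAD inhibition in parental cells went with higher COL6A3 and lower COL8A1. Each parental VT107 library is set here against the DMSO library of its number, although the correlations bear this out for number 3 alone. Only number 3 stood apart. VT107 library 1 correlated with DMSO libraries 1 and 2 alike (Pearson r of 0.613 and 0.607), and so did VT107 library 2 (0.517 and 0.488). Numbers 1 and 2 are thus not shown to be pairs. COL6A3 was at 212.1, 203.5 and 561.8 CPM in parental VT107 cells, against 97.6, 109.5 and 273.1 CPM in parental DMSO cells. The log2 ratios of same-numbered libraries were 1.12, 0.89 and 1.04. The groups overlapped because library 3 of both was high, while the 3 ratios were close to each other. With the replicate number as a block COL6A3 rose by 1.04 (SE 0.11, adjusted p = 0.00423). COL8A1 was at 11.4, 9.64 and 16.0 CPM in parental VT107 cells, against 20.1, 21.6 and 31.2 CPM in parental DMSO cells, with no overlap, and fell by 0.96 with the block (SE 0.14, adjusted p = 0.0167).

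Without the block 0 of 12891 genes passed in edgeR, where 474 had an unadjusted p under 0.05 (3.68%, and 5 of 20 collagen genes) and DESeq2 called 12 higher and 18 lower, and COL6A3 had a log2 fold change of 1.04 (SE 0.55, adjusted p = 0.999). With the block 0.846% of all genes were called higher and 0.822% lower, against 1 of 20 collagen genes in each direction, and 11 of 20 collagen genes had an unadjusted p under 0.05, against 17.7% of all genes. COL6A3 also passed without both libraries numbered 3, with the block (1.04, adjusted p = 0.0323) or without it (1.04, adjusted p = 0.0153). Without both libraries of number 1 no collagen gene passed, with COL6A3 at 0.98 (adjusted p = 0.0521) and COL8A1 at -1.04 (adjusted p = 0.0518). Without both of number 2 the count of collagen genes was 8 higher and 1 lower. The share of all genes called in that fit is not given here, so this count is not read as a result about collagen genes. COL8A1 did not pass without both libraries of number 3 (-0.95, adjusted p = 0.118).

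The remaining collagen genes moved less or less evenly. COL12A1 was at 18.1, 14.7 and 15.3 CPM in parental VT107 cells, against 22.5, 24.9 and 25.7 CPM in parental DMSO cells, with a blocked log2 fold change of -0.58 (SE 0.14, adjusted p = 0.0849). COL4A1 was at 17.8, 15.9 and 18.2 CPM in parental VT107 cells, against 21.9, 23.5 and 24.8 CPM in parental DMSO cells, at -0.41 (SE 0.13, adjusted p = 0.152). COL4A6 was at 4.19, 2.50 and 5.84 CPM in parental VT107 cells, against 2.22, 2.06 and 1.90 CPM in parental DMSO cells, at 0.97 (SE 0.32, adjusted p = 0.166). Its head-to-head neighbour COL4A5 was at 8.18, 6.52 and 11.2 CPM in parental VT107 cells, against 4.68, 4.77 and 6.14 CPM in parental DMSO cells, at 0.73 (SE 0.20, adjusted p = 0.109). These 4 genes and COL8A1 were the collagen genes whose groups did not overlap, 3 lower and 2 higher of 20, against 5.89% and 4.62% of all genes.

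The type VI partner COL6A1 was at 366.6, 334.1 and 1075 CPM in parental VT107 cells, against 268.2, 279.9 and 670.9 CPM in parental DMSO cells, with a blocked log2 fold change of 0.48 (SE 0.13, adjusted p = 0.0975). COL6A2 was at 164.3, 128.7 and 365.5 CPM in parental VT107 cells, against 136.6, 127.7 and 197.8 CPM in parental DMSO cells, at 0.41 (SE 0.16, adjusted p = 0.222). The ratio of COL6A3 to COL6A1 was 0.579, 0.609 and 0.523 in parental VT107 cells, against 0.364, 0.391 and 0.407 in parental DMSO cells, and these ranges did not overlap (exact two-sided permutation p = 0.1, the smallest possible). In NF1 mutant cells this ratio was 0.0305, 0.265 and 0.2 under VT107, against 0.137, 0.11 and 0.125 in DMSO, and these ranges overlapped. COL5A1 was at 83.7, 75.2 and 238.7 CPM in parental VT107 cells, against 65.9, 65.0 and 155.7 CPM in parental DMSO cells. Its blocked log2 fold change was 0.41 (SE 0.11, adjusted p = 0.104), and its log2 ratio was above 0 for all 3 numbers. The other fibrillar genes tested, COL5A2, COL1A1, COL1A2 and COL27A1, had blocked log2 fold changes between 0.038 and 0.35, and none passed. Without the block the sign of COL1A1, COL1A2, COL5A1, COL6A1 and COL6A2 turned when parental VT107 library 3 alone was left out.

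**Figure D4:**
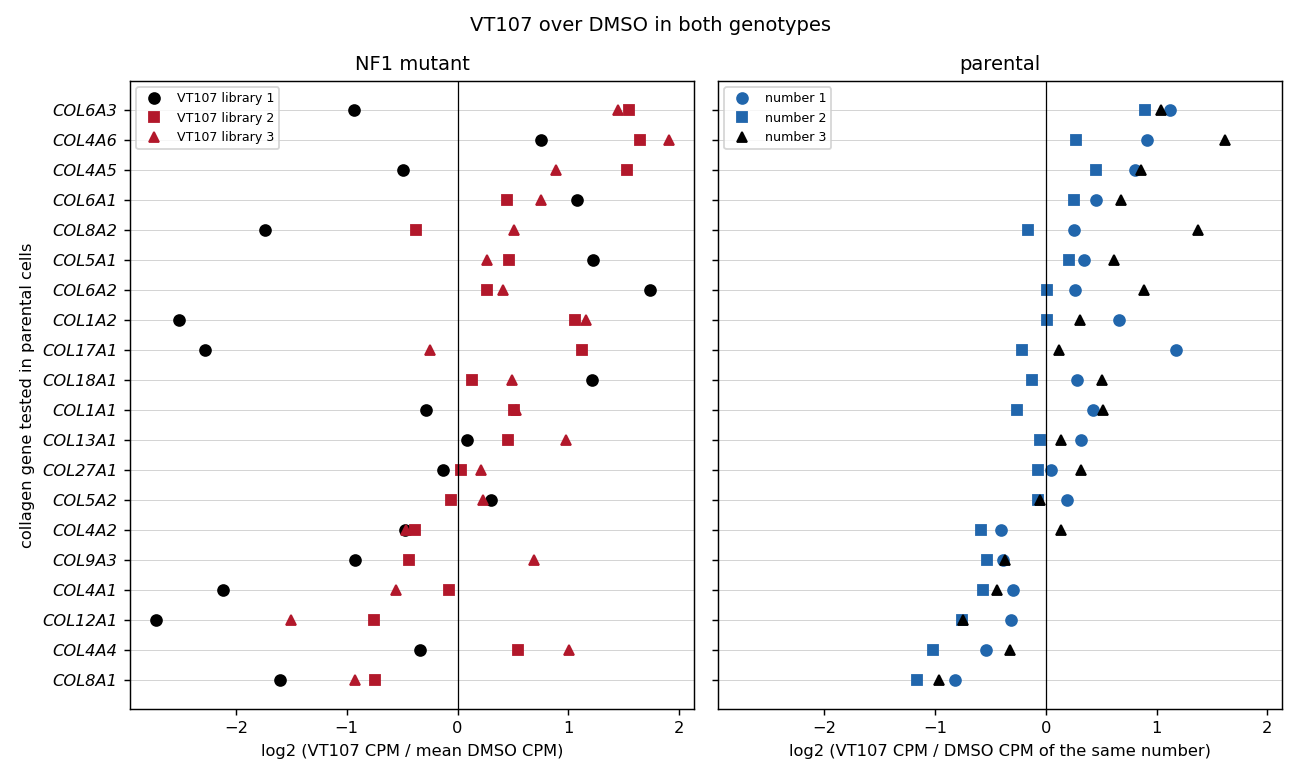
Log2 ratio of VT107 over DMSO for the 20 collagen genes tested in parental cells, with NF1 mutant VT107 libraries over the mean of the NF1 mutant DMSO libraries (left) and parental libraries paired by number (right). Black symbols are NF1 mutant VT107 library 1 and parental number 3. COL6A3 lies at 0.89 to 1.12 in the same-numbered parental libraries and at 1.45 and 1.54 in NF1 mutant libraries 3 and 2, with library 1 at -0.94.

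In NF1 mutant cells the VT107 comparison turned on library 1. COL6A3 was at 14.7, 81.9 and 76.7 CPM in NF1 mutant VT107 libraries 1 to 3, against 27.3, 26.7 and 30.3 CPM in NF1 mutant DMSO cells. Library 1 was below all DMSO libraries and the other 2 were above them. With all libraries 0 of 11605 genes passed in edgeR (612 with an unadjusted p under 0.05, which is 5.27% and includes 6 of 19 collagen genes, and 10 higher and 10 lower in DESeq2), and the log2 fold change of COL6A3 was 1.05 (SE 0.57, adjusted p = 0.774).

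Without that library, 6 of 20 collagen genes were called higher and 0 lower, among 109 genes higher and 89 lower of 12443. These were COL6A3 at 1.51 (SE 0.14, adjusted p = 5.27e-05), COL4A6 at 1.75 (SE 0.36, adjusted p = 0.0235), COL1A2 at 1.11 (SE 0.22, adjusted p = 0.0227), COL13A1 at 0.74 (SE 0.16, adjusted p = 0.0291), COL6A1 at 0.62 (SE 0.13, adjusted p = 0.0303) and COL1A1 at 0.53 (SE 0.11, adjusted p = 0.0278). With all libraries weighted by quality, COL6A3, COL4A6, COL6A1 and COL13A1 were called higher, and the share of all genes called in that fit is not given here. In library 1 COL6A2 was at 492.3 CPM, against 177.2 and 196.2 CPM in the other NF1 mutant VT107 libraries, and COL1A2 was at 2.30 CPM, against 27.3 and 29.3 CPM. COL12A1 was at 2.01 CPM there, against 7.89 and 4.69 CPM. The mesothelial list summed to 7800 CPM in library 1, against 4000 and 5657 CPM, and the fibroblast list to 316.7 CPM, against 389.9 and 383.1 CPM. The part of these markers was not tested.

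The level of COL6A1 was 480.6, 309.6 and 383.4 CPM in NF1 mutant VT107 cells, against 199.5, 241.8 and 242.0 CPM in NF1 mutant DMSO cells, all higher under VT107. COL1A1 was at 140.0, 242.7 and 246.0 CPM in NF1 mutant VT107 cells, against 169.1, 169.9 and 171.8 CPM in NF1 mutant DMSO cells, with library 1 alone below the DMSO range. COL13A1 was at 52.6, 68.0 and 98.1 CPM in NF1 mutant VT107 cells, against 49.6, 52.0 and 47.4 CPM in NF1 mutant DMSO cells, where library 1 was close to the DMSO range, above it by these values and within it when scaled over the 6 libraries compared. COL5A1 was at 156.1, 92.4 and 80.5 CPM in NF1 mutant VT107 cells, against 59.9, 67.3 and 73.6 CPM in NF1 mutant DMSO cells, without overlap. COL4A1 was at 6.04, 24.9 and 17.9 CPM in NF1 mutant VT107 cells, against 21.2, 32.4 and 24.9 CPM in NF1 mutant DMSO cells, and these groups overlapped.

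COL8A1 was at 4.02, 7.28 and 6.44 CPM in NF1 mutant VT107 cells, against 9.63, 15.1 and 11.98 CPM in NF1 mutant DMSO cells, with a log2 fold change of -1.03 (SE 0.34, adjusted p = 0.774). COL12A1 was at 2.01, 7.89 and 4.69 CPM in NF1 mutant VT107 cells, against 14.8, 10.2 and 14.9 CPM in NF1 mutant DMSO cells, at -1.42 (SE 0.47, adjusted p = 0.774). COL4A6 was at 3.16, 5.86 and 7.03 CPM in NF1 mutant VT107 cells, against 2.14, 1.78 and 1.71 CPM in NF1 mutant DMSO cells, at 1.49 (SE 0.40, adjusted p = 0.774). Groups did not overlap for these 3 genes, nor for COL4A2, COL5A1, COL6A1, COL6A2 and COL18A1, which makes 3 genes lower and 5 higher of 19, against 8.94% and 7.16% of all genes.

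The VT107 response was not shown to differ between genotypes. In the interaction test 0 of 11432 genes passed in edgeR and in DESeq2, 78 had an unadjusted p under 0.05 (0.682%), and none of the 19 collagen genes was among them. The largest difference was that of COL4A4, at 1.12 (SE 0.61, adjusted p = 1), and that of COL6A3 was 0.016 with an SE of 0.82. In simulated counts, with noise independent between genes as above, this test recovered 34.0% of genes whose response differed 4-fold and 2.0% of those that differed 2-fold.

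Genes that make, process and bind collagen were read from lists. Of 20 tested genes for chain hydroxylation, folding and export, 6 were lower and 2 higher in NF1 mutant than in parental DMSO cells, against 14.9% lower and 12.5% higher of all genes. PLOD2, a lysyl hydroxylase, was at 58.7, 52.2 and 65.8 CPM in NF1 mutant DMSO cells, against 196.3, 190.5 and 125.3 CPM in parental DMSO cells (log2 fold change -1.53, adjusted p = 0.000822). PPIB, a prolyl isomerase of the endoplasmic reticulum, was at -1.20 (adjusted p = 0.00266), SEC24D, a coat protein of export vesicles, at -0.96 (adjusted p = 0.00553) and LEPREL1, a prolyl 3-hydroxylase, at -1.35 (adjusted p = 0.00572). Of 10 processing and cross-linking genes 2 were higher and 1 lower, near the share of all genes, with the lysyl oxidase LOX at 0.76 (adjusted p = 0.0039), the procollagen C-proteinase enhancer PCOLCE2 at 1.03 (adjusted p = 0.00717) and LOXL2 at -1.03 (adjusted p = 0.0113).

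Of 5 collagen receptors tested in the same comparison 2 were lower and 0 higher, where 14.9% of all genes were lower and 12.5% higher. DDR2, a receptor tyrosine kinase for fibrillar collagen, was at 1.2, 2.4 and 3.7 CPM in NF1 mutant DMSO cells, against 24.2, 24.6 and 11.7 CPM in parental DMSO cells, with a log2 fold change of -3.07 (adjusted p = 0.00139), and the integrin subunit ITGA1 was at -1.20 (adjusted p = 0.011). Of 12 basement membrane partners 1 was higher and 1 lower, the heparan sulfate proteoglycans HSPG2 at 0.81 (adjusted p = 0.0021) and AGRN at -1.03 (adjusted p = 0.0202). Of 9 fibril-associated genes 2 were higher, PRELP at 1.16 (adjusted p = 0.00956) and FBLN1 at 0.64 (adjusted p = 0.0433), and 2 were lower, TNXB at -1.21 (adjusted p = 0.0341) and THBS1 at -0.42 (adjusted p = 0.0366).

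Under VT107 in parental cells, with the block, the integrin subunits of collagen receptors moved furthest among these lists. ITGA2 was at 61.2, 42.6 and 123.2 CPM in parental VT107 cells, against 18.8, 14.03 and 27.65 CPM in parental DMSO cells, and rose by 1.85 (SE 0.13, adjusted p = 0.000618). ITGA11 was at 4.3, 3.9 and 12.9 CPM in parental VT107 cells, against 1.7, 0.9 and 2.7 CPM in parental DMSO cells, and rose by 1.96 (SE 0.29, adjusted p = 0.0167). These were 2 of 6 receptors tested, where 0.846% of all genes were called higher and 0.822% lower, and 2 of 12 basement membrane partners rose, the laminin chains LAMB3 at 0.87 (adjusted p = 0.00803) and LAMA4 at 0.72 (adjusted p = 0.0237). The thrombospondin THBS1 fell by 1.04 (adjusted p = 0.00646) and THBS2 rose by 0.65 (adjusted p = 0.0255), and 0 of 21 hydroxylation, folding and export genes and 0 of 10 processing genes passed.

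The H226 counts could not be read as collagen mRNA. Pairs of a gene lying mostly inside a gene of the opposite strand were chosen in the parental H2052 libraries. There the inner gene had at least 3000 counts and at least 20 times those of the outer gene. In NF1 mutant H2052 libraries the inner gene had more counts in all 57 pairs, which follows largely from this choice. In H226 the outer gene had more in all 44 pairs listed. COL1A1 had at most 1 count and COL6A1 at most 3 in any H226 library. Of 23 collagen rows tested, 4 were lower in VT107 than in DMSO libraries and 0 higher, against 10.5% and 9.08% of all rows. The row of COL4A4 held 25, 11 and 8 counts in VT107, against 46, 46 and 28 counts in DMSO libraries (log2 fold change -1.66, adjusted p = 0.000533). COL4A1 was at -0.60 (adjusted p = 0.00464), COL4A2 at -0.49 (adjusted p = 0.0399) and COL21A1, with 1 to 7 counts, at -2.11 (adjusted p = 0.0169). COL4A1 did not pass without VT107 library 3 (adjusted p = 0.0542). COL4A2 did not pass without VT107 library 2 or 3 or DMSO library 1 or 2 (adjusted p of 0.11 to 0.193), nor COL21A1 without VT107 library 2 or 3 or DMSO library 2 (0.0531 to 0.0869, edgeR). These rows are given as counts of the table and were compared with no H2052 value.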

How the data were processed

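The authors sequenced polyA RNA and deposited read counts per gene, unnormalized, in 1 table for the H2052 libraries and 1 for H226. Per the labels, bcl2fastq 2.20.0.422 and the hg19 build were used, while for the aligner, the counter, the annotation and the strand setting nothing is given in the sources used here. In the H226 table, deposited log2 fold change and p-value columns of the authors' own comparison were not used. Elsewhere in the series, 16 count columns from siRNA libraries match no sample here and were also not used. Repeated identifiers (63 in H2052, 10 in H226) were summed.

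Counts were scaled by TMM and tested with the quasi-likelihood test of edgeR 4.0.16 (R 4.3.3) over all genes reaching 0.5 CPM in each library compared. Printed CPM were scaled over all 12 H2052 libraries, and overlaps were counted on CPM scaled within a comparison. P-values were adjusted by Benjamini-Hochberg and called under 0.05. Each contrast was fitted on its own groups, and the interaction on all 4 H2052 groups. Alternatives used DESeq2 1.42.0, limma 3.58.1, other filters, a replicate block and left-out libraries. The tests were checked on simulated counts. In parental cells same-numbered VT107 and DMSO libraries deviated together over 12891 genes (Pearson r of 0.613, 0.488 and 0.795 across genes, which are not independent), so blocked values are printed beside that comparison. Numbers 1 and 2 also correlated with each other (0.607 and 0.517), and number 3 stood apart, so numbers 1 and 2 are not shown to be pairs. The paper calls the libraries of a group biological replicates and does not describe how their cultures were kept apart. P-values measure the spread between these samples. A floor of 3 counts per library covers counting error only.

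Values per library were given for genes with a group mean of at least 10 CPM or a call with a log2 fold change of at least 1, and up to 4 genes per partner list by adjusted p. The genes and lists were chosen with earlier results of these data known.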

Additional observations from a re-analysis of the deposited data

How the results depend on the processing

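Calls in the genotype comparison in DMSO varied between fits. With all 4 H2052 groups in 1 fit, 2 collagen genes were lower and 0 higher, and with a filter of 0.5 CPM in at least 3 libraries 2 were higher, COL9A2 joining at 2.07 (adjusted p = 0.0403). Leaving out each replicate gave 3 to 6 lower and 1 higher, and the replicate block, whose numbers do not pair the samples of different genotypes, gave 5 lower and 1 higher, adding COL4A4. Under VT107, DESeq2 and the fit of all 4 groups each gave 3 lower, quality weights 3 lower and 1 higher, the block without NF1 mutant VT107 library 1 gave 2 lower, and leaving out that library and parental library 3 gave 3 lower and 1 higher. Leaving out each replicate gave 0.

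For VT107 in parental cells the replicate block gave 1 higher and 1 lower, the block without number 2 gave 8 higher and 1 lower, the block without number 3 gave 1 higher, number 3 alone set apart gave 1 higher and 2 lower, and leaving out both libraries numbered 3 without a block gave 1 higher. Without parental VT107 replicate 3 alone, unblocked log2 fold changes reversed, and leaving out each replicate gave -0.048 to 0.50 for COL1A1, -0.42 to 1.16 for COL1A2, -0.26 to 1.06 for COL5A1, -0.20 to 1.15 for COL6A1 and -0.061 to 0.81 for COL6A2, none called. In NF1 mutant cells quality weights gave 4 higher, leaving out each replicate gave 0 to 6 higher, and the block without library 1 gave 6 higher. No fit gave a collagen gene in the interaction. In H226, DESeq2 gave 2 lower and no adjusted p for COL21A1, RLE size factors 1 higher, the filter of 10 counts 2 lower, and the block 3 higher and 6 lower. Leaving out each replicate gave 1 to 5 lower and 0 to 2 higher. Of the single-gene values under alternatives, 480 kept their direction and their side of the threshold, 73 newly passed it, 18 no longer passed and 5 changed sign. A gene entered this tally if any fit called it, or in H226 the main or blocked fit. New passes thus follow in part from that choice, and values that stayed uncalled are among the 480. The tally does not measure how stable the calls are. The causes were not tested. Counts of collagen genes in this section stand without the share of all genes called in the same fit. They describe the fits and are not read as results about collagen genes. The alternatives with left-out pairs or 2 left-out libraries were chosen after seeing the data. The NF1 mutant libraries, at 3285363 to 5489092 counts, limit what can be seen of genes under 1 CPM. COL16A1 was called lower in NF1 mutant DMSO cells under the filter of 0.5 CPM in at least 3 libraries (adjusted p = 0.0357). It had 0 counts in those libraries, where 3 counts are 0.535 to 0.733 CPM, against 0.54 to 0.64 CPM in parental DMSO libraries, so no fold is given.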

Other observations

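Other genes of the collagen pathway were also far from their group in NF1 mutant VT107 library 1. CRTAP, a partner of the prolyl 3-hydroxylase, was at 23.9 CPM, against 255.8 and 193.0 CPM in libraries 2 and 3, and PLOD2 was at 3.45 CPM, against 54.4 and 43.05 CPM. FKBP10, a collagen-folding isomerase, was at 204.9 CPM, against 69.8 and 69.7 CPM, and HSPG2 was at 259.0 CPM, against 77.7 and 89.9 CPM. FN1, fibronectin, was at 2908 CPM in parental VT107 library 3, against 500.9 and 423.7 CPM in libraries 1 and 2, and in parental DMSO library 3 it was at 1775 CPM, against 404.6 and 397.5 CPM. These genes were chosen after their values were seen.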
